A study of Mus musculus with 6 samples.

Results

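The genes described here are 10 genes of glucose uptake, glycolysis and the response to low oxygen: the glucose transporter genes Slc2a1 and Slc2a3, the enzyme genes Hk2, Pfkp, Ldha and Pdk1, the oxygen sensor gene Egln3, and the hypoxia-induced genes Bnip3, Vegfa and Ankrd37. They were taken as every probe whose RefSeq accession belonged to 1 of these symbols, which gave 10 of the 20274 named genes and 17 of the 55646 probes on the array. All 10 were among the 14772 genes that passed the filter on dim signal, and all 17 probes were well above background on all 6 arrays. The cells were mouse epiblast stem cells (EpiSCs) of strain 129/Sv, a pluripotent cell type that represents the epiblast of the implanted embryo. Those of the EpiSC group stayed under epiblast maintenance, and those of the NPC1 and NPC2 groups spent 1 day and 2 days under conditions for neural plate development. Duplicate cultures, A and B, make up each group. All came from 1 seed culture, and the p-values therefore reflect only how far duplicates differ, which may be technical. Total RNA was labelled with Cy3 and read on 1-colour Agilent arrays, 1 array per culture, and the number of arrays limits the precision.

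Glucose enters a cell through transporters of the Slc2a family and is trapped as a phosphate by hexokinase. Phosphofructokinase then commits it to glycolysis, whose end product, pyruvate, is turned into lactate by lactate dehydrogenase or enters the mitochondrion for oxidation. Pyruvate dehydrogenase kinases such as Pdk1 restrain that last route. In low oxygen the prolyl hydroxylases of the Egln family no longer mark HIF alpha subunits for destruction, and the stabilised HIF dimers raise the transcription of most of these genes by binding short ACGTG or GCGTG cores. Primed pluripotent cells such as EpiSCs are known for a strongly glycolytic metabolism.

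Pou5f1, the pluripotency factor gene, and Sox1, a gene of the early neural plate, were read as a check of the culture labels: Pou5f1 was 1.72-fold lower in NPC1 and 6.32-fold lower in NPC2 than in EpiSC, and Sox1 was 6.75-fold and 52.7-fold higher (a second, less responsive Sox1 probe gave a log2 change of 0.25 in NPC1 and 1.82 in NPC2). Of the 5 EpiSC markers, 4 were lower and 1 higher in each NPC group than in EpiSC; the exception, Nanog, was 1.31-fold higher in NPC1 and 1.76-fold higher in NPC2 (limma adjusted p = 0.00438 and 0.000185). Markers of other cell types were not constant. The 9 fibroblast and feeder markers summed to 3022 to 3181 scaled intensity units in EpiSC, 3942 to 4085 in NPC1 and 4820 to 5080 in NPC2, with Lum above background on no array. Of 8 tested, 1 was higher (Thy1) and 2 lower (Col1a1 and Twist2) in NPC1 than in EpiSC, and 4 were higher and 2 lower in NPC2. The 5 endoderm markers summed to 2189 to 2274 units in EpiSC, 158 to 183 in NPC1 and 587 to 628 in NPC2, and 4 of 4 tested members were lower in NPC1 and in NPC2 than in EpiSC. The 5 erythroid markers summed to 1446 to 1454, 1281 to 1366 and 759 to 764 units in EpiSC, NPC1 and NPC2, and 4 of 4 tested members were lower in NPC2 than in EpiSC, with Hbb-bt above background on no array. The 5 endothelial markers stayed at 46.5 to 117 units, with Tie1 and Emcn above background on no array. Of all genes tested, 21.5% were higher and 28.6% lower in NPC1 than in EpiSC, and 28.3% and 40.6% in NPC2. The part of these cell types in the results below was not tested, and fewer cells of a type and less RNA per cell cannot be told apart in bulk RNA.

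To show the sequence next to which the transcripts of these genes start, the 250 bases before the annotated start of 5 of them are printed from RefSeq (assembly GRCm38.p6), 5′ to 3′ on the gene's strand, in lower case with each ACGTG or GCGTG core, on either strand, in capitals. Slc2a1 and Bnip3 stand for genes that rose and stayed up, Egln3 and Ankrd37 for genes that were highest on day 1, and Ldha for a gene without a call at the scaling used here.
Slc2a1, chr4:119108495-119108744, plus strand: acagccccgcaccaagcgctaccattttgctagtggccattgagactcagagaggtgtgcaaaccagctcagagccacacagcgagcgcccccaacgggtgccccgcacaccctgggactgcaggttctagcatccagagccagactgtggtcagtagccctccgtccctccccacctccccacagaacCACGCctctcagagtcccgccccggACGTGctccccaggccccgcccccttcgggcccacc
Bnip3, chr7:138909507-138909756, minus strand: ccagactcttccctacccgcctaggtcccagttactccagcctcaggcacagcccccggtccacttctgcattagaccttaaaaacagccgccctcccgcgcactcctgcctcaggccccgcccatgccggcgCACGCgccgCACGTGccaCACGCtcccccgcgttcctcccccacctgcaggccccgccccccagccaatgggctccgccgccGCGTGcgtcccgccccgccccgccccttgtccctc
Egln3, chr12:54203875-54204124, minus strand: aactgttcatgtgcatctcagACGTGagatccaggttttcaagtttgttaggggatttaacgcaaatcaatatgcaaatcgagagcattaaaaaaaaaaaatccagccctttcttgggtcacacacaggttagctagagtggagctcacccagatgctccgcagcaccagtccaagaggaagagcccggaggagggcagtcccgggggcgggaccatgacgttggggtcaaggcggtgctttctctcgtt
Ankrd37, chr8:45999851-46000100, minus strand: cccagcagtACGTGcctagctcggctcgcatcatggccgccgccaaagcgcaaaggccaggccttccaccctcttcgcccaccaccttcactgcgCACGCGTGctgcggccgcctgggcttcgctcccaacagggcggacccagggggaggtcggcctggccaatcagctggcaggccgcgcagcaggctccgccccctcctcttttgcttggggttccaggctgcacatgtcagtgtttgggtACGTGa
Ldha, chr7:46845554-46845803, plus strand: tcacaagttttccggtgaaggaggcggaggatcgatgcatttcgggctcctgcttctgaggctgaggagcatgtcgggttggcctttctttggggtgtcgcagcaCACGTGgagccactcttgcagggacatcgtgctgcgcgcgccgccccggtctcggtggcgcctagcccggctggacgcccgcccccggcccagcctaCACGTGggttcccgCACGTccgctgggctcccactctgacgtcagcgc
Of the 10 genes, 9 matched the promoter table, with 12 windows of 300 bases (250 before and 50 after a start). Slc2a3 had no window. At least 1 core lay in 10 of these 12 windows, and each of the 9 genes had a window with one. Pdk1 and Vegfa each also had a window without a core, and for Vegfa this was the window of the start further upstream. The share that follows is counted per window and not per gene. Among all 32851 windows of the table, 43.8% held at least 1 core: 19.6% held ACGTG, 32.4% held GCGTG and 7.15% held CACGTG, the E-box letters that contain ACGTG and read the same on both strands, so that each CACGTG counts as ACGTG once per strand. The window of Ldha shown held 7 cores, that of Bnip3 held 5, that of Ankrd37 held 4, that of Slc2a1 held 2 and that of Egln3 held 1. Of the 7 Ldha cores, 2 lie after the start and are not in the printed stretch, and its 2 CACGTG were each counted on both strands. Whether the number of cores goes with the changes was not tested. A match is a description of letters and not a bound site.

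The glucose transporter genes had the widest ranges of group means among the 10 genes. Slc2a1, which encodes GLUT1, the transporter of basal glucose uptake in most dividing cells, gave a scaled intensity of 25196 and 25486 in EpiSC A and B, 83004 and 84009 in NPC1, and 82556 and 77409 in NPC2. Scaled intensity is the processed intensity multiplied so that the 75th percentile of each array equals the mean of 414.9, and it compares a probe between arrays but not one probe with another. The EpiSC arrays lay far below the others, and the rise was complete by the first day. Slc2a1 was 3.30-fold higher in NPC1 than in EpiSC (log2 change 1.72 ± 0.052 SE, limma adjusted p = 9.94e-05, with n = 2 arrays a group as in every comparison below), a rise exceeded by 202 of the 14772 genes. It was 3.15-fold higher in NPC2 than in EpiSC (log2 change 1.66, adjusted p = 2.07e-05), and between NPC2 and NPC1 the log2 change of -0.06 ± 0.052 did not pass (adjusted p = 0.363).

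Slc2a3, which encodes GLUT3, the high-affinity transporter known from neurons and from the early embryo, rose in both steps. Its scaled intensity was 18590 and 19007 in EpiSC A and B, 32109 and 33491 in NPC1, and 66871 and 62749 in NPC2. No array of one group overlapped with those of another. Slc2a3 was 1.74-fold higher in NPC1 than in EpiSC (log2 change 0.80 ± 0.055, adjusted p = 0.000598) and a further 1.98-fold higher in NPC2 than in NPC1 (log2 change 0.98 ± 0.055, adjusted p = 0.000258). Over both days it was 3.45-fold higher in NPC2 than in EpiSC (log2 change 1.78, adjusted p = 2.06e-05). Slc2a1 and Slc2a3 have 1 probe each on the array.

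**Figure D1:**
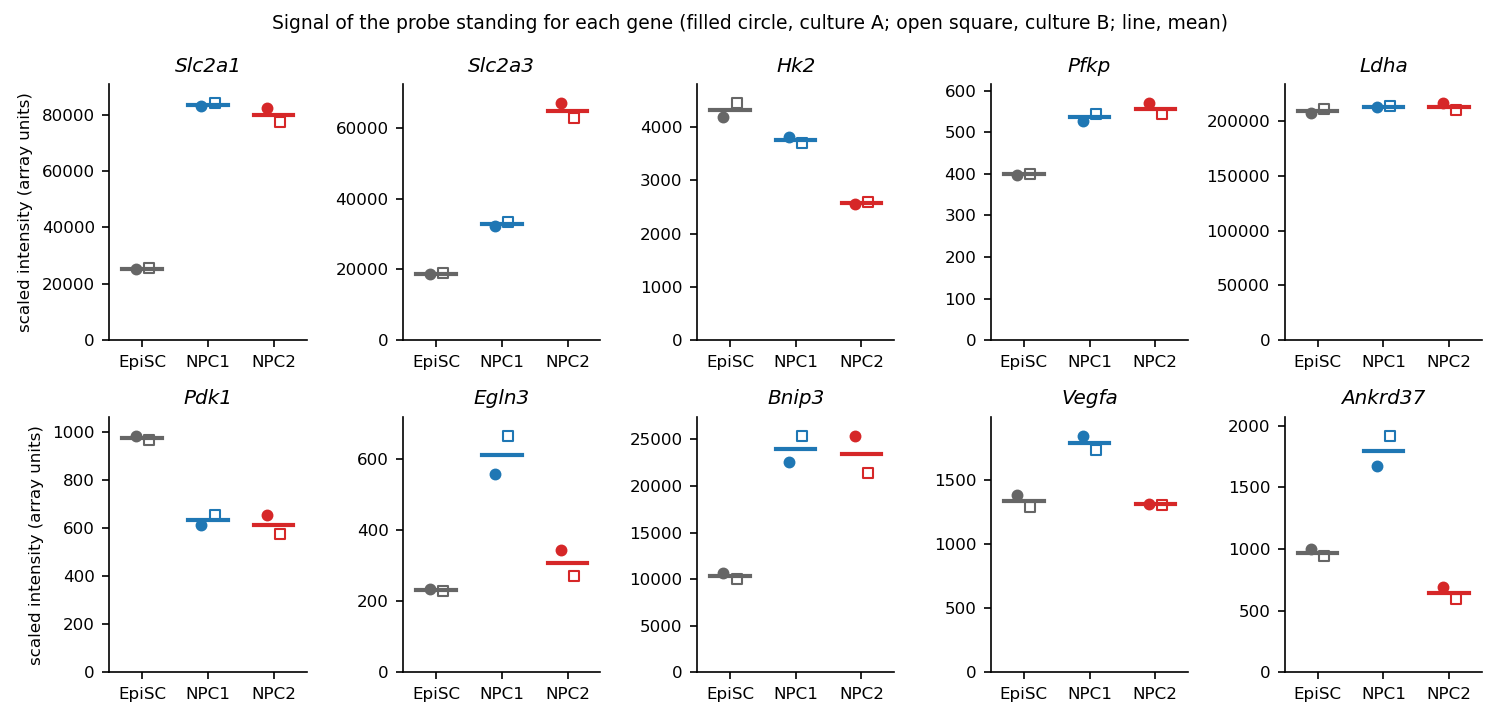
Scaled intensity (array units, axis from 0) of the probe that stands for each of the 10 genes, with 1 point per culture and a line at the group mean for EpiSC, NPC1 and NPC2. Slc2a1 and Bnip3 sat high in both NPC groups, Slc2a3 climbed in 2 steps, Egln3 and Ankrd37 were highest in NPC1, and Ldha was level at 207412 to 216166.

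The 4 enzyme genes differed among themselves: against EpiSC, Pfkp was higher and Pdk1 lower in both NPC groups, Hk2 was lower in NPC2 and Ldha gave no call. Hk2, which encodes the inducible hexokinase of embryonic and tumour cells, gave 4180 and 4439 units in EpiSC A and B, 3819 and 3699 in NPC1, and 2557 and 2587 in NPC2. Its 6 arrays fell into 3 separate levels, lowest in NPC2. Hk2 was 1.68-fold lower in NPC2 than in EpiSC (log2 change -0.74 ± 0.052, adjusted p = 0.000218) and 1.46-fold lower in NPC2 than in NPC1 (log2 change -0.55, adjusted p = 0.00121). The difference between NPC1 and EpiSC was small (log2 change -0.20 ± 0.052, adjusted p = 0.0312), and its call ended under 13 of 16 alternatives, with an adjusted p of up to 0.525 and a log2 change as small as -0.058. It ended, among others, without any 1 of the 6 arrays and when every probe was tested on its own (adjusted p = 0.0617).

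Pfkp, which encodes the platelet-type phosphofructokinase subunit, gave 398.2 and 398.7 units in EpiSC A and B, 527 and 545 in NPC1, and 569 and 544 in NPC2. Both NPC groups lay above EpiSC and overlapped with each other. Pfkp was 1.35-fold higher in NPC1 (log2 change 0.43 ± 0.049, adjusted p = 0.00245) and 1.40-fold higher in NPC2 (log2 change 0.48, adjusted p = 0.000749) than in EpiSC. The probes of Pfkp disagreed: the second, dimmer probe gave 92.2 and 95.6 units in EpiSC, 95.1 and 93.8 in NPC1, and 108 and 91.2 in NPC2, and its log2 changes of 0.0083 and 0.077 against EpiSC did not pass (adjusted p = 0.957 and 0.527 in the fit of every probe). The mean of both probes rose by 0.22 in NPC1 and 0.28 in NPC2, still called (adjusted p = 0.0438 and 0.0142).

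Ldha, which encodes the muscle-type lactate dehydrogenase subunit that favours lactate formation, was level across the groups. Its main probe gave 207412 and 210679 units in EpiSC A and B, 212549 and 214136 in NPC1, and 216166 and 210036 in NPC2. The NPC2 arrays spanned most of the range. The log2 change was 0.029 ± 0.044 in NPC1 (adjusted p = 0.611) and 0.028 ± 0.044 in NPC2 (adjusted p = 0.604), both against EpiSC. No spot was saturated, and 2 dimmer Ldha probes, which averaged 41305 and 8864 units in NPC2 against 37763 and 7808 in EpiSC, gave log2 changes of 0.13 and 0.18 that did not pass either (adjusted p = 0.222 and 0.0582). Ldha has pseudogene copies in the RefSeq table, and their share in these signals was not tested. Under the authors' scaling the main probe passed in NPC1 (log2 change 0.15, adjusted p = 0.0383) and in NPC2 (log2 change 0.25, adjusted p = 0.00477), with quantile normalization it passed in NPC2 (log2 change 0.15, adjusted p = 0.0328), and with median scaling its sign turned.

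Pdk1, a kinase gene whose product inhibits pyruvate dehydrogenase, was lower on both days. It gave 984 and 967 units in EpiSC A and B, 612 and 656 in NPC1, and 653 and 575 in NPC2. The EpiSC arrays lay above all others, and the NPC groups overlapped. Pdk1 was 1.54-fold lower in NPC1 (log2 change -0.62 ± 0.079, adjusted p = 0.00321) and 1.59-fold lower in NPC2 (log2 change -0.67, adjusted p = 0.00122) than in EpiSC. It is a known HIF target, as are Slc2a1 and Bnip3, and it moved opposite to them. The part of HIF in any of these changes was not tested.

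Egln3, which encodes the prolyl hydroxylase PHD3, an oxygen sensor that HIF itself induces, was highest on day 1. Its main probe gave 235 and 228 units in EpiSC A and B, 559 and 667 in NPC1, and 344 and 270.2 in NPC2. The NPC1 arrays lay above all others, and culture A was the higher of the NPC2 arrays. Egln3 was 2.63-fold higher in NPC1 than in EpiSC (log2 change 1.40 ± 0.14, adjusted p = 0.0018) and 2.00-fold lower in NPC2 than in NPC1 (log2 change -1.003, adjusted p = 0.00453). Between NPC2 and EpiSC the log2 change of 0.39 ± 0.14 did not pass (adjusted p = 0.0595). That result turned on single arrays: without NPC2 replicate B it was 0.57 (adjusted p = 0.0229), and without NPC2 replicate A it was 0.22. It also passed under the authors' scaling (0.62, adjusted p = 0.0129). The second Egln3 probe gave changes of 1.34 in NPC1 and 0.44 in NPC2 against EpiSC.

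Ankrd37, an ankyrin repeat gene known as a HIF target, had the widest range of group means among the 3 hypoxia-induced genes. It gave 1000.2 and 942 units in EpiSC A and B, 1671 and 1918 in NPC1, and 689.8 and 592 in NPC2. The groups did not overlap, and NPC2 ended below EpiSC. Ankrd37 was 1.84-fold higher in NPC1 than in EpiSC (log2 change 0.88 ± 0.11, adjusted p = 0.00285), 2.80-fold lower in NPC2 than in NPC1 (log2 change -1.49, adjusted p = 0.000513) and 1.52-fold lower in NPC2 than in EpiSC (log2 change -0.60, adjusted p = 0.00543). The last of these was -0.38 under the authors' scaling, still called (adjusted p = 0.0236).

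Vegfa, the gene of the main angiogenic growth factor, was highest on day 1 too, by less. It gave 1387 and 1291 units in EpiSC A and B, 1848 and 1739 in NPC1, and 1314 and 1309 in NPC2. The NPC1 arrays stood above the others, and the NPC2 arrays lay within the EpiSC range. Vegfa was 1.34-fold higher in NPC1 than in EpiSC (log2 change 0.42 ± 0.060, adjusted p = 0.00457) and 1.37-fold lower in NPC2 than in NPC1 (log2 change -0.45, adjusted p = 0.00356). Between NPC2 and EpiSC the log2 change of -0.029 ± 0.060 did not pass (adjusted p = 0.684), and its sign differed between scalings. A second Vegfa probe gave 844 and 716 units in NPC1 against 520.4 and 571 in EpiSC, a change of 0.51 (adjusted p = 0.0445 in the fit of every probe).

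Bnip3, which encodes a mitochondrial receptor for mitophagy, rose on day 1 and stayed up. It gave 10708 and 10054 units in EpiSC A and B, 22589 and 25347 in NPC1, and 25402 and 21397 in NPC2. The NPC groups overlapped, and each exceeded EpiSC on both arrays. Bnip3 was 2.31-fold higher in NPC1 (log2 change 1.21 ± 0.11, adjusted p = 0.00124) and 2.25-fold higher in NPC2 (log2 change 1.17, adjusted p = 0.00054) than in EpiSC. Its 2 other probes changed by 1.21 and 1.07 in NPC1 and by 1.24 and 0.88 in NPC2, all called in the fit of every probe. In that fit, in which p-values were adjusted over 33532 probes, 12 of the 17 probes passed in NPC1 against EpiSC (11 higher, 1 lower), 9 passed in NPC2 against EpiSC (6 higher, 3 lower) and 7 passed in NPC2 against NPC1 (1 higher, 6 lower). Of all probes, 33.2% passed in the first comparison (16.2% higher, 17% lower), 54.5% in the second (23.9% higher, 30.6% lower) and 31.9% in the third (13.5% higher, 18.3% lower).

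**Figure D2:**
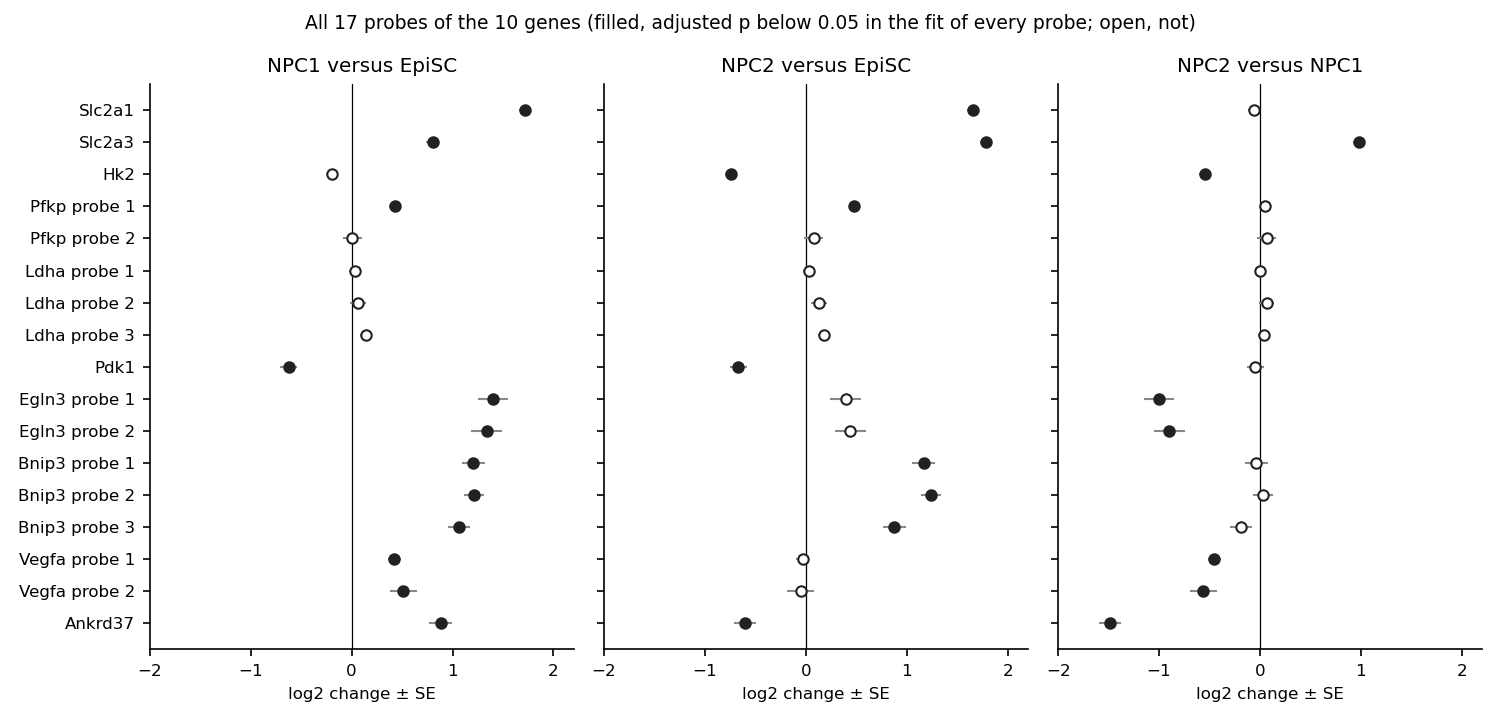
Log2 change with its standard error for each of the 17 probes in the 3 comparisons, probes of a gene ordered from bright to dim. The probes of Egln3, Bnip3, Vegfa and Ldha lay close to each other within a gene, while the dimmer Pfkp probe stayed near 0 where the brighter changed by 0.43 and 0.48.

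Over the 10 genes, 7 were higher and 2 lower in NPC1 than in EpiSC, with a median log2 change of 0.62, where 21.5% of the genes tested were higher and 28.6% lower (50.1% called in all) with a median of -0.051. In NPC2 against EpiSC 4 were higher and 3 lower (median 0.21), where 28.3% of all genes were higher and 40.6% lower (68.9% in all, median -0.098). In NPC2 against NPC1 1 was higher and 4 lower (median -0.056), where 20.6% were higher and 26.7% lower (47.4% in all, median -0.046). The 3 comparisons share arrays, the genes were chosen with earlier results of these data known, and the counts of both later comparisons were close to the share of all genes. The median in NPC2 against EpiSC was 0.11 with median scaling and 0.43 under the authors' scaling, where 6 were higher and 3 lower. The median in NPC2 against NPC1 turned to 0.047 under the authors' scaling, where 2 were higher and 4 lower. That scaling also moved the median of all genes by 0.12, 0.22 and 0.10 in the same order of comparisons, and median scaling moved the first by -0.11. The share of called genes that were lower was 57.1%, 58.9% and 56.5%, against 37.9%, 38.8% and 41.0% under the authors' scaling, and it was 71.2% in the first under median scaling.

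**Figure D3:**
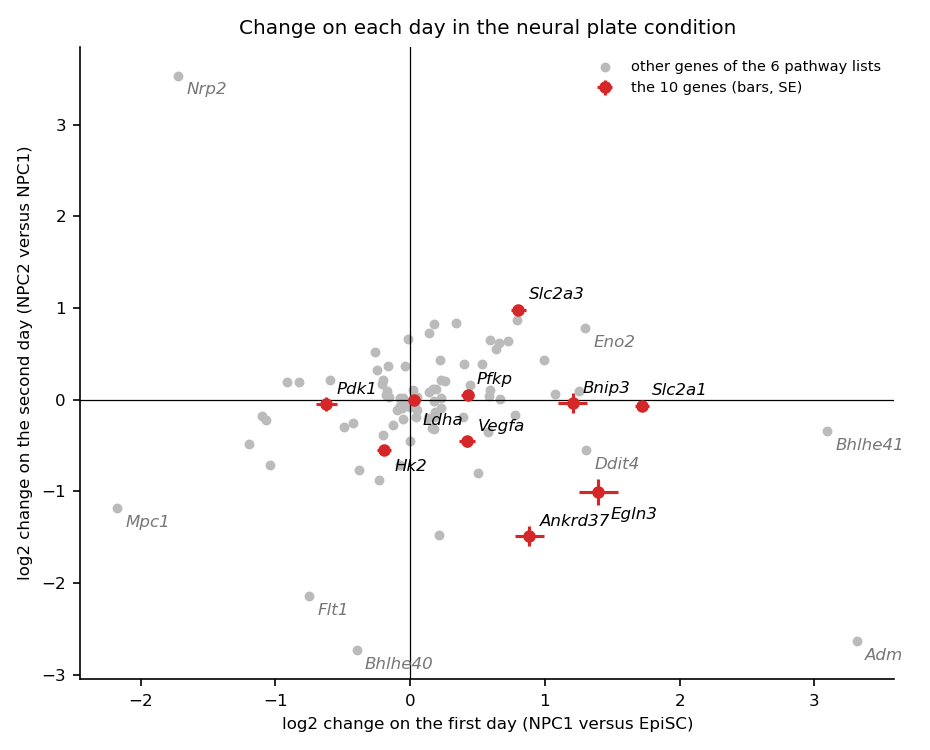
Log2 change on the first day (NPC1 versus EpiSC, horizontal) and on the second (NPC2 versus NPC1, vertical) for the 10 genes, with standard errors, and for the other genes of the 6 pathway lists; both axes use the NPC1 arrays. Slc2a3 rose on both days, Slc2a1 and Bnip3 on the first, Egln3, Ankrd37 and Vegfa rose and fell back, and Bhlhe41 was not well above background in EpiSC, so its first value is no measured fold.

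Other genes of the same routes were described from 6 lists. Their counts stand beside the shares of all genes tested. These were 21.5% higher and 28.6% lower in NPC1 than in EpiSC, and 28.3% and 40.6% in NPC2. Among the glucose transporters and uptake regulators, 8 of the 12 on the array were tested, and 7 were higher and 0 lower in NPC2 than in EpiSC (median 0.78), and 5 and 0 in NPC1 (median 0.49). With limma the exception in NPC2 was Slc2a5 (log2 change -0.13, adjusted p = 0.341). The 7 higher genes include Txnip (log2 change 0.70) and Arrdc4 (0.21), listed as uptake regulators whichever way they act. The count is therefore not one of transporters alone and gives no direction of glucose uptake, which was not measured. Slc2a4, the insulin-responsive transporter gene, was 2.58-fold higher in NPC2 (596 ± 8.01 units, against 231 ± 10.06 in EpiSC, SD, n = 2 each). Slc2a6 was 2.55-fold higher (log2 change 1.35, adjusted p = 6.57e-05), Slc2a13, a myo-inositol transporter gene, 2.26-fold higher and Slc2a10 1.82-fold higher. The last pair were dim, at 55.2 units or less, and with normexp background correction their changes were 0.31 and 0.32. The call of Slc2a10 ended without NPC2 replicate A, NPC2 replicate B or EpiSC replicate B (adjusted p = 0.0705, 0.0567 and 0.0733).

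Of 20 tested glycolytic enzyme genes, 7 were higher and 5 lower in NPC2 than in EpiSC (median 0.005), and 7 and 2 in NPC1 (median 0.15). These counts moved with the scaling: in NPC2 6 were higher and 8 lower with median scaling, and 11 and 4 under the authors' scaling, and in NPC1 3 and 3 with median scaling, and 10 and 1 under the authors' scaling. Eno2, the neuronal enolase gene, gave 174 and 195 units in EpiSC A and B, 471 and 435 in NPC1, and 767 and 787 in NPC2. It was 4.22-fold higher in NPC2 than in EpiSC (log2 change 2.08 ± 0.079, adjusted p = 3.5e-05). Aldoc, the brain aldolase gene, was 2.21-fold higher and Eno3, the muscle enolase gene, 1.59-fold higher. Pfkfb4, whose product sets the level of an activator of phosphofructokinase, was 1.57-fold higher. Among the 5 lower genes were Pfkm (log2 change -0.58, limma adjusted p = 0.000452) and Eno1 (-0.27, adjusted p = 0.00784). Gapdh, the glyceraldehyde phosphate dehydrogenase gene, did not pass (log2 change -0.060, adjusted p = 0.393).

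Among the genes that handle pyruvate and lactate, Mpc1 and Pdhb had the largest falls. Of 16 tested, 2 were higher and 7 lower in NPC2 than in EpiSC (median -0.099), and 3 and 5 in NPC1 (median -0.066). The counts of lower genes were close to the shares of all genes, 40.6% in NPC2 and 28.6% in NPC1. The medians of all genes were -0.098 and -0.051. Under the authors' scaling 4 were higher and 5 lower in NPC2 (median 0.12), and 5 and 3 in NPC1 (median 0.055). Mpc1, which encodes a subunit of the mitochondrial pyruvate carrier, gave 3684 and 3909 units in EpiSC A and B, 808 and 877 in NPC1, and 384 and 357 in NPC2. It was 4.51-fold lower in NPC1 (adjusted p = 0.000113) and 10.2-fold lower in NPC2 (log2 change -3.36 ± 0.071, adjusted p = 1.05e-05) than in EpiSC, and a second probe gave -3.52. Its partner gene Mpc2 did not pass (log2 change -0.075, adjusted p = 0.342). Pdhb, a pyruvate dehydrogenase subunit gene, was 3.38-fold lower in NPC2 (log2 change -1.76, adjusted p = 1.88e-05; second probe -1.79). Among the other pyruvate dehydrogenase kinase genes, Pdk2 was 2.68-fold higher in NPC2 than in EpiSC and Pdk4 2.39-fold lower. Both were dim, and with normexp background correction their changes were 0.89 and -0.48. Slc16a3, the lactate exporter gene MCT4 and a known HIF target, was 2.15-fold lower in NPC2 (log2 change -1.11, adjusted p = 6.23e-05). Slc2a5, Txnip, Arrdc4, Pfkm, Eno1, Gapdh, Mpc2, Slc16a3 and, below, Adm, Ddit4 and Kdr were named after their values were seen.

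In the list of oxygen sensing and HIF subunits, 12 genes were tested, and 6 were higher and 3 lower in NPC2 than in EpiSC (median 0.065), against 3 and 6 with median scaling and 7 and 1 under the authors' scaling. In NPC1, 1 was higher and 3 lower (median -0.068), against 1 and 6 with median scaling and 4 and 1 under the authors' scaling. The shares of all genes were 28.3% higher and 40.6% lower in NPC2, and 21.5% and 28.6% in NPC1. Hif1a, the main HIF alpha subunit gene, gave 1311 and 1354 units in EpiSC A and B, 981 and 1009 in NPC1, and 831 and 837 in NPC2. It was 1.60-fold lower in NPC2 than in EpiSC (log2 change -0.68 ± 0.046, adjusted p = 0.000195) and 1.34-fold lower in NPC1 (adjusted p = 0.00214). HIF activity is set mainly by protein stability, which arrays do not measure. Arnt2, a HIF beta subunit gene of neural tissue, was 2.43-fold higher in NPC2 (log2 change 1.28, adjusted p = 3.76e-05), Egln1, the main prolyl hydroxylase gene, 1.58-fold higher, and Vhl, whose product tags hydroxylated HIF alpha for destruction, 1.26-fold higher (adjusted p = 0.00727). With normexp background correction the change of Egln1 was 0.35, and that of Vhl was 0.55 under the authors' scaling.

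Of 20 tested hypoxia-induced genes outside the 10, 10 were higher and 6 lower in NPC1 than in EpiSC (median 0.27). In NPC2, 10 were higher and 7 lower than in EpiSC (median 0.23). Genes of this list thus moved in both directions. Of all genes, 21.5% were higher and 28.6% lower in NPC1, and 28.3% and 40.6% in NPC2. Adm, the adrenomedullin gene, gave 124 and 136 units in EpiSC A and B, 1248 and 1349 in NPC1, and 236 and 185 in NPC2. It was 9.97-fold higher in NPC1 than in EpiSC (log2 change 3.32 ± 0.13, adjusted p = 0.000156) and 6.21-fold lower in NPC2 than in NPC1 (adjusted p = 0.0002). Ddit4, an mTOR inhibitor gene induced by hypoxia and by other stresses, was 2.48-fold higher in NPC1 than in EpiSC and 1.47-fold lower in NPC2 than in NPC1. Both were highest on day 1, as Egln3, Ankrd37 and Vegfa were, but both were named after their values were seen. The list as a whole did not share this course: the 6 genes lower in NPC1, against 10 higher, include Angptl4 (log2 change -1.20). Car12, a carbonic anhydrase gene, rose on both days and was 3.18-fold higher in NPC2 than in EpiSC. Bhlhe40 was 8.76-fold lower in NPC2 than in EpiSC (adjusted p = 2.03e-05) and its relative Bhlhe41 at least 1.94-fold higher, since it was not well above background on either EpiSC array; with normexp background correction its log2 change was 0.26. A bound of this kind divides the brighter group's mean by the larger of 2 signals on the dim arrays, that of the dim probe itself and the weakest one of any probe well above background. Angptl4, a lipoprotein lipase inhibitor gene, was 3.20-fold lower in NPC2 than in EpiSC.

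**Figure D4:**
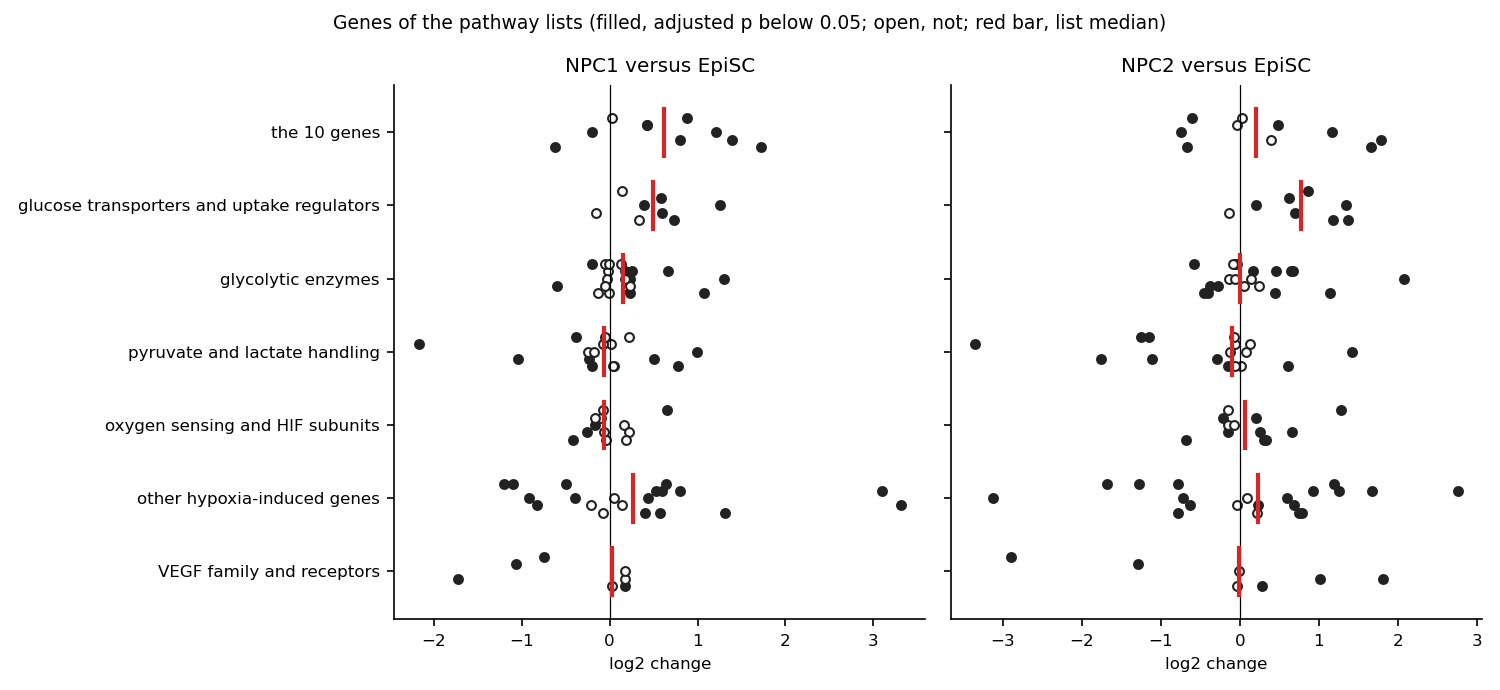
Log2 change of each tested gene in NPC1 and in NPC2 against EpiSC, by list, with the list median as a red bar. The medians of the glucose transporters and uptake regulators lie at 0.49 and 0.78, those of the glycolytic enzymes at 0.15 and 0.005, and the hypoxia-induced genes spread to both sides.

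Among the other VEGF ligand and receptor genes, 7 of 9 were tested, and 3 were higher and 2 lower in NPC2 than in EpiSC, and 1 and 3 in NPC1 (0 and 3 with median scaling, 3 and 3 under the authors' scaling). The shares of all genes were 28.3% higher and 40.6% lower in NPC2, and 21.5% and 28.6% in NPC1. Flt1, the VEGF receptor 1 gene and a known HIF target, gave 1453 and 1441 units in EpiSC A and B, 931 and 794 in NPC1, and 205 and 185 in NPC2. It was 7.43-fold lower in NPC2 than in EpiSC (log2 change -2.89, adjusted p = 2.51e-05). Nrp2, a co-receptor gene for VEGF and semaphorins, was 3.30-fold lower in NPC1 and 3.51-fold higher in NPC2 than in EpiSC, and both of its probes gave this turn. Pgf, the placental growth factor gene, was 2.45-fold lower in NPC2, or -0.72 on the log2 scale with normexp background correction, and Vegfc, a ligand of lymphatic growth, was 2.02-fold higher. Kdr, the VEGF receptor 2 gene, did not pass in NPC2 (log2 change -0.030, adjusted p = 0.766).

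For the 3 members with the widest range of group means, the genes of the nearest pattern were found as those with the smallest Euclidean distance over the 6 arrays of log2 values centred on each gene's own EpiSC mean. Nearest to Slc2a3 were Reep1 (distance 0.129), Maob (distance 0.158) and Car12 (distance 0.200), with changes in NPC2 against EpiSC of 1.80, 1.73 and 1.67. Nearest to Slc2a1 were Trp53i11 (distance 0.167), Slc34a3 (distance 0.176) and Nfkbie (distance 0.197), with changes in NPC1 against EpiSC of 1.76, 1.82 and 1.68. Nearest to Ankrd37 were Trim47 (distance 0.314), Unc45b (distance 0.333) and Klk13 (distance 0.335), whose changes in NPC1 against EpiSC were 0.88, 0.78 and 0.86. The distances are in log2 units and describe 6 arrays of 1 experiment.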

How the data were processed

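Processed intensity, spot median intensity and local background intensity were deposited by the authors as 1 scanner file per array. Per the file headers, Agilent Feature Extraction 10.10.1.1 (protocol GE1_1010_Sep10, design 028005) subtracted the background and removed spatial trends within an array. The deposited value table holds the same intensity times 1 constant per array, 2.10 to 2.41, set from a basis not given in the sources used here. It is linear and uncentred, with medians of 51.3 to 65.3. All 6 arrays lay on 1 slide, with 59305 non-control spots, 58.2% to 61.1% of them well above background and 0 saturated.

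Control and outlier spots were left out, log2 values averaged per probe and the array's 75th percentile subtracted. Of 28372 probes with a RefSeq accession, 26744 matched 1 symbol (assembly GRCm38.p6), and 28902 probes stayed unnamed. Each gene was represented by its brightest probe among those well above background on both arrays of 1 group or more. Limma 3.58.1 (R 4.3.3, lmFit and eBayes, two-sided) was fitted to 14772 genes on 3 groups, with Benjamini-Hochberg adjustment over all genes and a threshold of 0.05. Errors are moderated standard errors. On simulated arrays of 14772 genes for NPC2 against EpiSC, 76 of 100 changes of 1 and 95 of 100 changes of 2 on the log2 scale were called. Of the unchanged genes, 8 were called. The simulation held far fewer changed genes than were called in the data (68.9%), so its rates need not hold there.

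Named were the 10 members, the 4 called genes of each list with the largest change in NPC2 against EpiSC, and the 3 nearest genes of 3 members. Members, lists and tests were chosen with earlier results of these data known. Alternatives were median scaling, quantile normalization, normexp (offset 50), the value table, 2 filters, the mean of probes, single probes, 2-group fits, a replicate block and leaving out each array. The files hold spot medians, which normexp used in place of means. Per-sample columns without a sample numbered 0.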

Additional observations from a re-analysis of the deposited data

How the results depend on the processing

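Of the alternatives computed for the changes of the 10 genes, 435 kept direction and call, 13 lost the call (all Hk2 in NPC1 against EpiSC), 8 gained one and 24 turned direction, with no call. Gained calls were those of Egln3 and Ldha given above, Egln3 in NPC2 against EpiSC with normexp (0.39, adjusted p = 0.00356) and with only probes above background on all 6 arrays (adjusted p = 0.0412), and Pfkp in NPC2 against NPC1 under the authors' scaling (0.16). Hk2 left 1 member lower in place of 2 in NPC1 under quantile normalization, normexp, the authors' scaling, no filter, single probes, only the 2 groups compared, the replicate block and each array left out (1 in all). Under the authors' scaling 2708 genes were lower in NPC1 than in EpiSC and 3899 in NPC2, 15 member probes were called in NPC2 against EpiSC, and 2 members were higher in NPC2 than in NPC1. With 1 array left out, 4840 (without EpiSC B) to 6673 genes were called in NPC1 against EpiSC, 2500 (without EpiSC B; 2789 without EpiSC A) to 3796 of them lower. Turned directions in NPC2 against NPC1, by quantile, normexp and the authors' scaling, were Bnip3 (0.12, 0.15 and 0.065; -0.16 to 0.086 with 1 array left out), Slc2a1 (0.068, 0.073 and 0.040) and Ldha (0.095, 0.094 and 0.10; 0.0055 by median scaling, 0.035 as the mean of probes, -0.023 to 0.019 with 1 array left out). There Pdk1 turned under the authors' scaling (0.054; -0.14 to 0.043 with 1 array left out), and Aldoc (-0.056 to 0.19) and Eno3 (-0.017 to 0.024) with 1 array left out. In NPC2 against EpiSC Vegfa turned in the first 3 settings (0.090, 0.092 and 0.19; -0.082 to 0.023 with 1 array left out) and Ldha by median scaling (-0.070). In NPC1 against EpiSC Ldha turned by median scaling (-0.076), Vhl in the same 3 settings (0.030, 0.012 and 0.084; -0.099 to 0.026), Pfkfb4 under the authors' scaling (0.10; -0.054 to 0.017) and Slc2a10 with 1 array left out (-0.17 to 0.45). The cause was not tested. The differences between A and B were not shared across groups (correlations of 0.0080, 0.0063 and -0.045). That cannot decide whether the letters pair the cultures, since paired cultures need not share such differences. The replicate block gave 6815, 9867 and 6482 called genes against 7394, 10181 and 6996, with limma adjusted p = 0.0570 for Hk2 in NPC1. With 2 arrays a group and 3 residual degrees of freedom, changes near the median standard error of 0.068 cannot be resolved. The changes of dim probes depend on the background correction and on the offset added with normexp.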
